A study of Homo sapiens with 27 samples.

Results

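The comparison is between 2 short hairpin RNAs that target the same gene, SIRT3, in a single diffuse large B-cell lymphoma (DLBCL) line, Karpas422. Its members are the 3 RNA-seq libraries of Karpas422 cells carrying shSIRT3-2 and the 3 libraries of the same cells carrying shSIRT3-1, which are 6 of the 27 libraries of the series. All genes with at least 1 CPM (read counts scaled to a common library total) in at least 3 of these 6 libraries were compared, which left 10990 of 27115 genes. The series holds 3 DLBCL lines (Karpas422, OCI-Ly1 and HBL1), each with a scramble control hairpin (shCTRL in the labels, shCtr here), shSIRT3-1 or shSIRT3-2 and 3 libraries per group. Every group, shCtr included, received a lentivirus that carries a hairpin, a fluorescent protein and puromycin resistance, and RNA was taken on day 8 after infection. Karpas422 is a cell line, assigned by the study to the OXPHOS subtype of DLBCL, and each condition is a pool of infected cells rather than a clone. The labels number the replicates but do not say that they came from separate cultures, so the p-values below measure the spread between these samples.

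SIRT3 is a mitochondrial deacetylase that acts on many enzymes of the citric acid cycle, of glutamine use and of the respiratory chain. A short hairpin RNA is cut by DICER1 into a small RNA that guides Argonaute proteins to the target transcript. Each hairpin sequence can also act on other transcripts that match it in part. B cells present antigen on MHC class II molecules, signal through the B cell receptor and the CD40 and NF-kappaB pathways, and lose much of this programme when they become plasma cells. A gene that differs between hairpins against one target cannot be assigned here to the hairpin sequence or to the amount of SIRT3 left, because both changed together and cannot be told apart.

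The 6 libraries held 40722163 to 52524136 reads on genes, so that 1 read was worth 0.00847 to 0.0107 CPM. Differences were fitted with limma on log2(CPM + 0.1), a scale that understates the change of genes near 0, and are given as shSIRT3-2 minus shSIRT3-1. A gene is called higher or lower with shSIRT3-2 at a fold change above 1.5 and a limma adjusted p (Benjamini-Hochberg over all 10990 genes) under 0.05. Replicate 3 stood apart from replicates 1 and 2 with each hairpin, with Pearson r over genes of 0.974 to 0.975 against 0.996 for shSIRT3-2 and 0.983 to 0.986 against 0.997 for shSIRT3-1. Of 8 B cell markers, all 8 passed the filter in these cells. The summed level of 5 myeloid markers was at most 0.743 CPM, that of 4 epithelial markers at most 0.0318 CPM and that of 3 erythroid markers at most 0.0106 CPM in the 6 libraries. The T cell marker CD3G was found at 17.6 to 39.1 CPM and the fibroblast marker DCN at 104 to 292 CPM in all 6 libraries, and neither was called. The part of other cells in these values was not tested. In bulk RNA, fewer cells that express a gene and less RNA per cell cannot be told apart.

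SIRT3 itself (chr11:215030-236931, minus strand, GRCh37) was left at a higher level by shSIRT3-2. Its level was 9.99, 9.14 and 10.2 CPM with shCtr, 2.44, 2.79 and 2.57 CPM with shSIRT3-1, and 6.24, 5.32 and 4.41 CPM with shSIRT3-2. The groups did not overlap, and every shSIRT3-2 library lay between the other 2 groups. The log2 difference between hairpins was 0.99 (SE 0.16, limma adjusted p = 0.0106). Without shSIRT3-1 replicate 1 it was 0.95, with a limma adjusted p = 0.0543. Against shCtr, SIRT3 was lower by a log2 difference of -1.87 with shSIRT3-1 and -0.88 with shSIRT3-2. In the other lines the difference between hairpins was 1.70 for OCI-Ly1 (limma adjusted p = 0.0143) and 0.56 for HBL1 (limma adjusted p = 0.0505).

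Of the 7 sirtuins, 6 passed the filter and 2 were called, both higher with shSIRT3-2, where 6.62% of all genes tested were. SIRT3, the target of both hairpins, was among the 2, so the count is not a result about the family. The other called member was SIRT2, a mainly cytosolic deacetylase. It measured 7.6, 9.5 and 5.86 CPM with shSIRT3-1 and 12.6, 13.5 and 14.2 CPM with shSIRT3-2. All shSIRT3-2 libraries were above all shSIRT3-1 libraries, and the shCtr libraries, at 11.8, 13.7 and 11.3 CPM, lay beside the former. The log2 difference of SIRT2 was 0.83 (SE 0.17, limma adjusted p = 0.0205), with an adjusted p of 0.0797 without shSIRT3-1 replicate 1 and 0.0554 without shSIRT3-2 replicate 2.

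Of 14 genes that process or use small RNAs, 13 were tested. Of these, 2 were called higher with shSIRT3-2, where 6.62% of all genes tested were. DROSHA, the nuclear enzyme that makes the first cut in microRNA precursors, measured 38.3, 37.3 and 33.9 CPM with shSIRT3-1 and 58.9, 55.2 and 66.5 CPM with shSIRT3-2. Its groups were well apart, and its log2 difference was 0.72 (SE 0.10, limma adjusted p = 0.00821). This call held in each of the 6 fits that left out 1 library. AGO4, an Argonaute protein, rose by 0.85 (limma adjusted p = 0.0304, and 0.0967 without shSIRT3-1 replicate 1), and the median of the 13 members was -0.03.

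Across all genes, shSIRT3-2 and shSIRT3-1 gave different levels for 1179 of 10990 genes tested, or 10.7%. Of these, 728 (6.62%) were higher and 451 (4.1%) lower with shSIRT3-2, and 160 of the higher and 211 of the lower differed more than 2-fold. The groups of 3 libraries did not overlap for any of the 1179. Over all genes tested, the shSIRT3-2 libraries lay wholly above for 30.5% and wholly below for 16.5%. The median log2 difference over all genes was 0.08, and the split depended on the scaling: 538 genes were higher and 538 lower after quantile normalization, and 503 were higher and 574 lower after median-ratio scaling. edgeR's quasi-likelihood test on the recovered reads called 510 genes higher and 566 lower.

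The count also depended on single libraries. Without shSIRT3-1 replicate 1 the fit called 196 genes, and 195 of the 1179 were among them. Without shSIRT3-1 replicate 3 it called 697. The other fits that left out 1 library called 872 to 992. Most calls on the gene lists below were lost without shSIRT3-1 replicate 1, and those that held in all 6 fits are named. Of the 1179 genes, 186 were called in all 6 of these fits, 103 higher and 83 lower, and all 1179 kept their sign in each fit that tested them. Without replicate 3 of both hairpins, 917 genes were called (8.54% of those tested, with 5.11% higher and 3.43% lower). A fit that blocked on replicate number called 1503 genes (13.7%, with 8.28% higher and 5.4% lower).

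**Figure D1:**
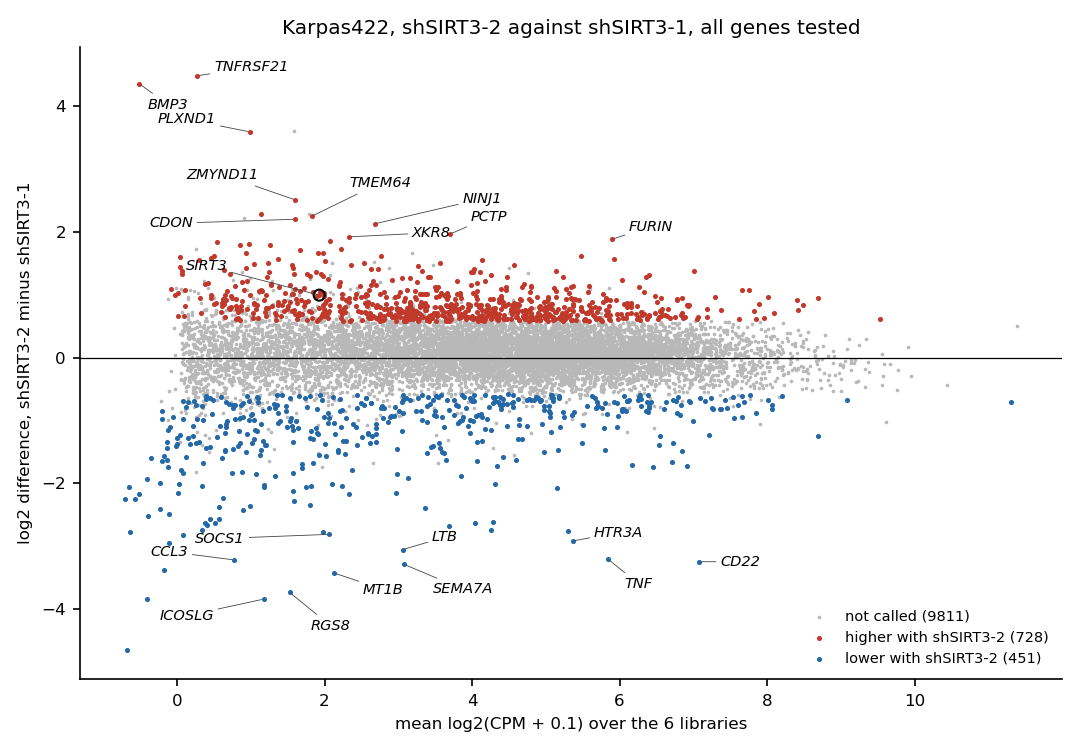
Each point is 1 of the 10990 genes tested, with the mean log2(CPM + 0.1) over the 6 libraries on the x axis and the log2 difference of shSIRT3-2 minus shSIRT3-1 on the y axis. Red points are the 728 genes called higher with shSIRT3-2, blue points the 451 called lower, grey points all others, and the ring marks SIRT3 at 0.99.

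Among the 10 largest rises with shSIRT3-2 were TNFRSF21 and BMP3. TNFRSF21 (chr6:47199268-47277641), the death receptor DR6, measured 0.0536, 0.117 and 0.403 CPM with shSIRT3-1 and 3.04, 1.78 and 32 CPM with shSIRT3-2. Replicate 3 stood about an order of magnitude above the other shSIRT3-2 libraries. The log2 difference was 4.49 (SE 1.01, limma adjusted p = 0.0243), and the adjusted p was 0.0923, 0.0684 and 0.0503 without shSIRT3-1 replicate 1, 2 or 3. Without any of the shSIRT3-2 libraries the gene did not pass the filter. BMP3 (chr4:81951862-81978781), a secreted factor of the TGF-beta family, had 3, 2 and 13 reads with shSIRT3-1 and 149, 114 and 2263 reads with shSIRT3-2. Again replicate 3 carried most of the reads, and the call at a log2 difference of 4.36 (SE 1.00, limma adjusted p = 0.0256) was made in no fit that left out 1 library. TNFRSF21 and BMP3 passed the filter through the shSIRT3-2 libraries alone. Genes that pass in this way lean towards higher values with shSIRT3-2.

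PLXND1 (chr3:129274057-129325519), a receptor for semaphorins, measured 0.246, 0.314 and 1.19 CPM with shSIRT3-1 and 5.64, 3.82 and 14.4 CPM with shSIRT3-2. Its log2 difference was 3.60 (SE 0.62, limma adjusted p = 0.0126, and 0.0562 without shSIRT3-1 replicate 1). NINJ1 (chr9:95883778-95896533), a membrane protein that opens the plasma membrane of dying cells, measured 2.56, 2.57 and 3.96 CPM with shSIRT3-1 and 9.94, 9.28 and 25.7 CPM with shSIRT3-2. All 3 shSIRT3-2 libraries were above the shSIRT3-1 libraries, and the log2 difference was 2.13 (limma adjusted p = 0.0146, and 0.0662 without shSIRT3-1 replicate 1). FURIN (chr15:91411818-91426794), a protease that cuts proproteins in the secretory pathway, measured 29.2, 36.6 and 27.8 CPM with shSIRT3-1 and 87.4, 84.3 and 206 CPM with shSIRT3-2. Its log2 difference was 1.89 (SE 0.33, limma adjusted p = 0.0131, and 0.059 without shSIRT3-1 replicate 1).

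TMEM64, a membrane protein of the endoplasmic reticulum, measured 1.45, 2.03 and 1.2 CPM with shSIRT3-1 and 7.21, 9.29 and 6.65 CPM with shSIRT3-2. The log2 difference of this gene was 2.25 (SE 0.22, limma adjusted p = 0.00472). XKR8 (chr1:28286099-28294604), a scramblase that exposes phosphatidylserine during apoptosis, measured 2.63, 2.55 and 2.32 CPM with shSIRT3-1 and 9.1, 8.56 and 11.9 CPM with shSIRT3-2. The groups were well apart, at a log2 difference of 1.92 (SE 0.15, limma adjusted p = 0.00416). PCTP, a phosphatidylcholine transfer protein, rose by 1.97 (limma adjusted p = 0.00619), and the calls of TMEM64, XKR8 and PCTP held in all 6 fits without 1 library. The remaining large rises were ZMYND11, a chromatin reader, at 2.51 (limma adjusted p = 0.0103, and 0.0522 without shSIRT3-1 replicate 1), and CDON, a surface receptor of hedgehog signalling, at 2.20 (limma adjusted p = 0.0172). CDON had an adjusted p of 0.0716 without shSIRT3-1 replicate 1 and 0.0502 without replicate 2.

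Among the 10 largest falls with shSIRT3-2 were ICOSLG and CD22. ICOSLG (chr21:45635265-45661329), the ligand with which B cells engage ICOS on T cells, measured 6.86, 5.72 and 15.4 CPM with shSIRT3-1 and 0.777, 0.436 and 0.347 CPM with shSIRT3-2. The shCtr libraries, at 2, 2.56 and 0.836 CPM, lay between the hairpins. It differed by a log2 value of -3.85 (SE 0.41, limma adjusted p = 0.00491). The gene passed the filter through the shSIRT3-1 libraries alone and was not tested when any of them was left out. CD22 (chr19:35810164-35838264), an inhibitory co-receptor of the B cell receptor, measured 513, 455 and 311 CPM with shSIRT3-1 and 102, 88 and 9.26 CPM with shSIRT3-2. Every shSIRT3-2 library was below every shSIRT3-1 library, with replicate 3 lowest in each group. The log2 difference was -3.25 (SE 0.84, limma adjusted p = 0.0352), and the adjusted p was 0.114, 0.0918 and 0.0777 without shSIRT3-1 replicate 1, 2 or 3.

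TNF and LTB were also among the 10 largest falls. TNF (chr6:31543342-31546113), the founding cytokine of the TNF family, measured 185, 172 and 166 CPM with shSIRT3-1 and 34.3, 32.4 and 5.89 CPM with shSIRT3-2. On the log2 scale it differed by -3.21 (SE 0.61, limma adjusted p = 0.0166), with an adjusted p of 0.069 and 0.0502 without shSIRT3-1 replicate 1 or 3. LTB (chr6:31548302-31550299), which encodes lymphotoxin beta, measured 23, 36.5 and 16.4 CPM with shSIRT3-1 and 4.25, 5.3 and 0.932 CPM with shSIRT3-2. For each of TNF and LTB the groups did not overlap, and the lowest shSIRT3-2 value was that of replicate 3. LTB fell by 3.06 on the log2 scale (limma adjusted p = 0.0182), with an adjusted p of 0.0711 and 0.0542 without shSIRT3-1 replicate 1 or 2. CCL3, a chemokine that B cells release after receptor engagement, measured 3.09, 8.57 and 5.05 CPM with shSIRT3-1 and 0.343, 0.853 and 0.313 CPM with shSIRT3-2. The log2 difference of this gene was -3.22 (SE 0.44, limma adjusted p = 0.00878), and without any of the shSIRT3-1 libraries it did not pass the filter.

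HTR3A (chr11:113845797-113861035), a subunit of a serotonin-gated ion channel, measured 102, 95.6 and 150 CPM with shSIRT3-1 and 17.5, 18.4 and 10.3 CPM with shSIRT3-2. The shCtr libraries, at 26.6, 20.4 and 12.4 CPM, were close to shSIRT3-2, and the log2 difference was -2.92 (SE 0.25, limma adjusted p = 0.00472). SOCS1 (chr16:11348274-11350061), an inhibitor of cytokine signalling, measured 8.66, 9.64 and 15.7 CPM with shSIRT3-1 and 1.79, 2.13 and 0.813 CPM with shSIRT3-2. It differed by a log2 value of -2.82 (limma adjusted p = 0.00777). MT1B, a metallothionein that binds zinc and copper, measured 12, 8.73 and 27.4 CPM against 1.4, 1.38 and 0.957 CPM and fell by 3.43 on the log2 scale (limma adjusted p = 0.00583). The metallothionein genes are near-identical copies, so the share of reads that belongs to MT1B is uncertain. The calls of HTR3A, SOCS1 and MT1B held in all 6 fits without 1 library. RGS8, a regulator of G protein signalling, fell by 3.74 (limma adjusted p = 0.0101, and 0.051 without shSIRT3-1 replicate 1), and SEMA7A, a membrane-anchored semaphorin, fell by 3.29 (limma adjusted p = 0.0143, and 0.0642 without shSIRT3-1 replicate 1).

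**Figure D2:**
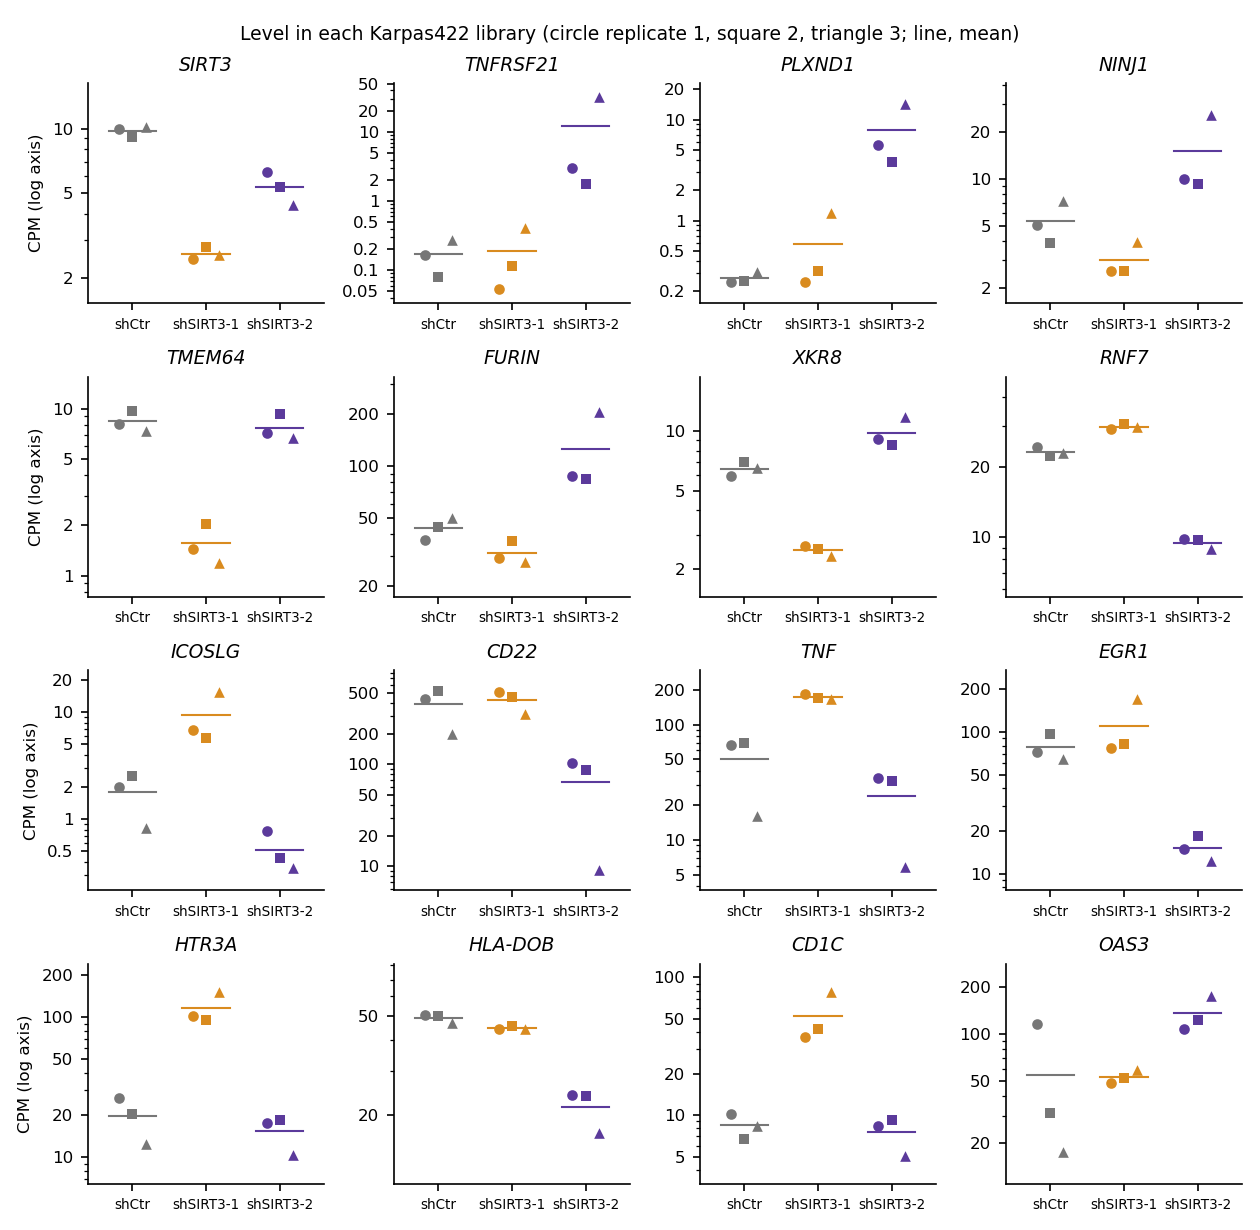
Each panel gives the level of 1 gene in CPM, on a log axis, in the 9 Karpas422 libraries, with circles for replicate 1, squares for replicate 2, triangles for replicate 3 and a line at the mean of each group. SIRT3 lies at 2.44 to 2.79 CPM with shSIRT3-1 and 4.41 to 6.24 CPM with shSIRT3-2, TMEM64 and XKR8 have shCtr on the side of shSIRT3-2, and in TNFRSF21, FURIN, CD22 and TNF the triangle of shSIRT3-2 is the most extreme point of its group.

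The shCtr libraries were used to ask which hairpin had moved away from the control level. The comparisons with shCtr share libraries with each other and with the comparison of hairpins, so their values are given side by side only. With shSIRT3-1, 1690 genes (15.4% of those tested) differed from shCtr, 4.55% higher and 10.8% lower. With shSIRT3-2, 1570 genes (14.3%) differed, 5.68% higher and 8.61% lower. Of the 1179 genes called between hairpins, the shCtr mean lay between the hairpins for 487 of those higher and 289 of those lower with shSIRT3-2. It lay above both for 163 and 109 and below both for 78 and 53.

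A stricter placement asked for a shCtr mean within 1.2-fold of one hairpin and more than 1.5-fold from the other. By this measure, shCtr lay at the level of shSIRT3-2 for 203 of the genes higher and 58 of the genes lower with shSIRT3-2, and at the level of shSIRT3-1 for 97 and 123. Among the genes at the shCtr level with shSIRT3-2, the largest differences were those of TMEM64, LIMS1, DCTD, SCD5 and MAP2K4 on the higher side and CD1C, EPB41L1, CUEDC1, GAPT and AVPR2 on the lower side. MAP2K4, a kinase that activates JNK, measured 20.8, 24.2 and 24.4 CPM with shCtr, 10.2, 10.2 and 9.18 CPM with shSIRT3-1, and 23.9, 22.5 and 33.8 CPM with shSIRT3-2. CD1C, which presents lipid antigens, measured 10.1, 6.74 and 8.32 CPM with shCtr, 36.8, 41.8 and 78.1 CPM with shSIRT3-1, and 8.28, 9.17 and 5.07 CPM with shSIRT3-2. For MAP2K4 and CD1C, shSIRT3-1 was the hairpin that stood away from the control libraries.

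Among the genes at the shCtr level with shSIRT3-1, the largest differences were those of TNFRSF21, CDON, TMEM100, UNC119 and ZDHHC23 on the higher side and CD22, LTA, NDUFA4L2, LINC00487 and ASTN2 on the lower side. UNC119, a carrier of lipidated proteins, measured 8.64, 9.43 and 14.4 CPM with shCtr, 10, 10.3 and 11.1 CPM with shSIRT3-1, and 22.4, 19.1 and 30.4 CPM with shSIRT3-2. NDUFA4L2, a paralog of a respiratory chain subunit, measured 6.88, 11 and 6.69 CPM with shCtr, 7.03, 8.78 and 5.77 CPM with shSIRT3-1, and 2.07, 1.64 and 1.29 CPM with shSIRT3-2. For UNC119 and NDUFA4L2 no shSIRT3-2 library overlapped with either other group. For LTA they did overlap, as shCtr replicate 3, at 28.5 CPM, lay within the shSIRT3-2 range of 7.04 to 30.4 CPM.

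MHC class II presentation was lower with shSIRT3-2 across most of its genes. All 14 members passed the filter, 10 were called lower, none was called higher, and 4.1% of all genes tested were called lower. The median log2 difference of the 14 was -0.79, against 0.08 over all genes, and 11 of the 14 had all shSIRT3-1 libraries above all shSIRT3-2 libraries, against 16.5% of all genes tested. HLA-DOB (chr6:32780540-32788243), which modulates peptide loading in B cells, measured 44.3, 45.5 and 44.1 CPM with shSIRT3-1 and 23.9, 23.9 and 16.9 CPM with shSIRT3-2. It fell by 1.06 on the log2 scale (SE 0.14, limma adjusted p = 0.00821). The shCtr libraries, at 50.6, 49.8 and 46.9 CPM, lay beside shSIRT3-1.

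The other called members were CIITA and genes of the DM, DO, DQ and DR molecules. CIITA, the master regulator of class II transcription, measured 90.2, 98.1 and 60.1 CPM with shSIRT3-1 and 49, 47.7 and 22 CPM with shSIRT3-2, a difference of -1.12 (limma adjusted p = 0.0499). HLA-DMB, a chain of the peptide exchange factor HLA-DM, measured 40.4, 42.1 and 33.5 CPM with shSIRT3-1 and 19.7, 21 and 9.08 CPM with shSIRT3-2, a difference of -1.30 (limma adjusted p = 0.0262). In both, every shSIRT3-2 library was below the lowest shSIRT3-1 library, and replicate 3 was the lowest of each group. HLA-DQB1 fell by 1.10 (limma adjusted p = 0.015) and HLA-DRA, the alpha chain of the DR molecule, by 0.82 (limma adjusted p = 0.0388). HLA-DRB5, HLA-DQA1, HLA-DMA, HLA-DRB1 and HLA-DOA fell by 0.76, 0.73, 0.70, 0.67 and 0.64. HLA-DRB1 and HLA-DRB5 are close paralogs, and the split of their reads is uncertain.

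Of the 4 members not called, CD74, the invariant chain that escorts class II molecules, had a difference of -1.02 (limma adjusted p = 0.0616, and 0.00332 with the replicate block), HLA-DPB1 -1.05 (limma adjusted p = 0.113, and 0.0022 with the block), HLA-DPA1 -0.50 and CTSS 0.39. The number of members called lower was 1, 2 and 2 without shSIRT3-1 replicate 1, 2 or 3, and 5, 7 and 4 without shSIRT3-2 replicate 1, 2 or 3, with HLA-DOB called in all 6 fits. It was 8 without replicate 3 of both hairpins, with a median of -0.66, and 10 after quantile normalization. The summed level of the 14 members was 2773, 2949 and 2062 CPM with shSIRT3-1 and 1691, 1805 and 1027 CPM with shSIRT3-2. With shCtr it was 2190, 2063 and 2069 CPM, above every shSIRT3-2 sum and below those of shSIRT3-1 replicates 1 and 2. The lowest shSIRT3-1 sum, that of replicate 3, was above the highest shSIRT3-2 sum.

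Class II promoters carry a conserved block whose Y box, an inverted CCAAT element, is bound by NF-Y. The letters CTGATTGG were searched on both strands of the promoters that RefSeq gives on GRCh38.p14, taken from 250 bases before to 50 bases after the start. Promoters were at hand for 11 of the 14 members, 4 held the letters, and these 4 were among the 8 called members with a promoter. Of all 35116 promoters, 3.97% held them. The 4 matches share the letters in capitals below because the search asked for them. HLA-DRB1 and HLA-DRB5 have the same 30 bases. Windows of 30 bases are shown in the direction of the gene, all on the minus strand of chromosome 6, with the letters in capitals. They lie at chr6:32589879-32589908 for HLA-DRB1, chr6:32530362-32530391 for HLA-DRB5, chr6:32666730-32666759 for HLA-DQB1 and chr6:32953161-32953190 for HLA-DMA.
HLA-DRB1: gaactcagatgCTGATTGGttctccaacac
HLA-DRB5: gaactcagatgCTGATTGGttctccaacac
HLA-DQB1: cagctccagtgCTGATTGGttcttttccga
HLA-DMA: cctacgcttctCTGATTGGtttagacaaaa

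In MHC class I presentation, all 14 members were tested, 1 was called lower and none higher, and the median was 0.06. Of all genes tested, 4.1% were called lower. The called member was NLRC5, the class I counterpart of CIITA, which measured 62, 61.8 and 95.7 CPM with shSIRT3-1 and 46.9, 43.9 and 33 CPM with shSIRT3-2. Its difference was -0.81 (limma adjusted p = 0.0321), and the shCtr libraries, at 50, 35 and 23.9 CPM, were nearer to shSIRT3-2.

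Of 30 genes of B cell receptor signalling, 28 were tested, 9 were called lower and none higher, where 4.1% of all genes tested were called lower, and the median was -0.25. One of the 9, EGR3, passed the filter through the shSIRT3-1 libraries alone. The early response factor EGR1 (chr5:137801168-137804992) measured 76.7, 82.6 and 170 CPM with shSIRT3-1 and 14.9, 18.6 and 12.2 CPM with shSIRT3-2. Its groups were far apart, and its log2 difference was -2.76 (SE 0.31, limma adjusted p = 0.00527). NR4A1, an orphan nuclear receptor that reports receptor engagement, measured 5.54, 19.2 and 8.03 CPM with shSIRT3-1 and 1.96, 2.13 and 2.65 CPM with shSIRT3-2, a difference of -2.04 (limma adjusted p = 0.0186). EGR1 and NR4A1 were the members called in all 6 fits without 1 library.

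Further early response genes fell, with EGR3 at -2.95 (limma adjusted p = 0.0172) and the phosphatase DUSP2 at -1.85 (limma adjusted p = 0.0265). EGR3 had 120, 636 and 192 reads with shSIRT3-1 and 21, 53 and 14 reads with shSIRT3-2. PTPN6, the phosphatase SHP-1 that CD22 recruits, measured 218, 236 and 138 CPM with shSIRT3-1 and 96.1, 94.7 and 35.4 CPM with shSIRT3-2, a difference of -1.49 (limma adjusted p = 0.0388). MS4A1, the surface antigen CD20, measured 740, 733 and 466 CPM with shSIRT3-1 and 330, 354 and 163 CPM with shSIRT3-2, a difference of -1.24 (limma adjusted p = 0.0348). In both, the groups did not overlap. The kinase gene PRKCB fell by 0.92 and RASGRP1, which activates RAS downstream of the receptor, by 0.82. Of the receptor chains, CD79A had a difference of -0.67 (limma adjusted p = 0.0607, and 0.00794 with the replicate block) and CD79B of 0.03 (limma adjusted p = 0.853). The number of members called lower was 2, 3 and 4 without shSIRT3-1 replicate 1, 2 or 3 and 7, 8 and 8 without shSIRT3-2 replicate 1, 2 or 3.

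EGR1 is a classic target of serum response factor, which binds the CArG box. The letters searched (CC, any base, TAT, any 2 bases, GG) only approximate that box. On either strand they were found in 3 of the 23 members that had a promoter and in 1.2% of all promoters. Of the 7 called members that had a promoter, 1 held them, EGR1. One of the matches lies at chr5:138465364-138465393 on GRCh38.p14, shown with the letters in capitals because EGR1 had the largest fall of the list among genes called in all 6 fits.
EGR1: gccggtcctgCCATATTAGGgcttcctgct

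Of 25 genes that mark the germinal centre and the plasma cell, 23 were tested, 2 were called higher and 3 lower (6.62% and 4.1% of all genes tested), with a median of -0.05. With the replicate block 3 were called higher and 6 lower. MYBL1, a transcription factor of germinal centre B cells, measured 145, 131 and 214 CPM with shSIRT3-1 and 42.3, 57.3 and 44.4 CPM with shSIRT3-2, a difference of -1.74 (SE 0.20, limma adjusted p = 0.0055). SDC1, the plasma cell surface protein CD138, measured 11.4, 12.3 and 11.4 CPM with shSIRT3-1 and 23.4, 22.7 and 23.5 CPM with shSIRT3-2. It rose by 0.99 (SE 0.08, limma adjusted p = 0.00472), and both calls held in all 6 fits without 1 library. PAX5, the factor of B cell identity, fell by 0.61 (limma adjusted p = 0.0207) and BACH2, a repressor of plasma cell fate, by 0.59 (limma adjusted p = 0.0469). MME, the germinal centre antigen CD10, rose by 0.68 (limma adjusted p = 0.0221). Without shSIRT3-1 replicate 1 these 3 had limma adjusted p of 0.0797, 0.157 and 0.0882.

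PRDM1, the driver of plasma cell differentiation, was not called. It measured 0.279, 0.421 and 3.13 CPM with shSIRT3-1 and 5.7, 4.12 and 46.9 CPM with shSIRT3-2, and the groups did not overlap. Replicate 3 was the highest of each group by several fold, and the log2 difference was 3.61 (SE 1.08, limma adjusted p = 0.0532, and 0.00139 with the replicate number as a block). The summed level of the 8 B cell markers was 2496 to 3134 CPM with shSIRT3-1 and 1481 to 2125 CPM with shSIRT3-2. Of these 8, CD22, MS4A1 and PAX5 were called lower and MME higher.

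NF-kappaB subunits and targets, a list that holds TNF, LTA, LTB and CCL3, were called lower more than higher. Of 26 genes, 19 were tested, 7 were called lower and 1 higher, with a median of -0.32. Of all genes tested, 4.1% were called lower and 6.62% higher. CCL3, 1 of the 7, passed the filter through the shSIRT3-1 libraries alone. BIRC3, a ubiquitin ligase that restrains death signals, measured 4.27, 4.72 and 5.2 CPM with shSIRT3-1 and 1.53, 1.13 and 1.02 CPM with shSIRT3-2. Its difference was -1.88 (SE 0.18, limma adjusted p = 0.00472), and it was the member called in all 6 fits without 1 library. CD40, the receptor for T cell help, measured 2.84, 2.91 and 1.96 CPM against 0.858, 1.07 and 0.644 CPM, a difference of -1.49 (limma adjusted p = 0.0107, and 0.0543 without shSIRT3-1 replicate 1). LTA, which encodes lymphotoxin alpha, fell by 2.08 (limma adjusted p = 0.026) and NFKBID, a nuclear regulator of NF-kappaB, by 0.68 (limma adjusted p = 0.0308). NFKB1, the precursor of the p50 subunit, was the member that rose, from 12.5, 13.2 and 10 CPM to 17.8, 16.2 and 22.8 CPM, a difference of 0.66 (limma adjusted p = 0.0299) that was not called after quantile normalization. The number called lower was 1, 4 and 3 without shSIRT3-1 replicate 1, 2 or 3 and 7, 6 and 7 without shSIRT3-2 replicate 1, 2 or 3.

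Of 30 chemokines, cytokines and their receptors, 12 were tested, with a median of -0.68. Of the 12, 4 were called lower and none higher, where 4.1% of all genes tested were called lower. Beside CCL3 and LTB these were IL2RG, the common gamma chain of cytokine receptors, at -0.99 (limma adjusted p = 0.00913), and IL4R, at -1.29 (limma adjusted p = 0.0464). CCL3 passed the filter through the shSIRT3-1 libraries alone, and both CCL3 and LTB were also counted in the NF-kappaB list. IL2RG measured 2.85, 2.83 and 2.78 CPM with shSIRT3-1 and 1.45, 1.27 and 1.39 CPM with shSIRT3-2. No member was called without shSIRT3-1 replicate 1 and 1 member was called without shSIRT3-1 replicate 2. CXCR4, a homing receptor, was tested and had a difference of 0.72 (limma adjusted p = 0.498, and 0.0161 with the replicate block).

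Interferon-stimulated genes were higher with shSIRT3-2. Of 42 genes on the list, 40 were tested, 13 were called higher and 1 lower, where 6.62% of all genes tested were called higher. The median was 0.51, and 38 of the 40 differences were positive. OAS3 (chr12:113375856-113414265), a sensor of double-stranded RNA, measured 48.9, 52.2 and 59.3 CPM with shSIRT3-1 and 108, 124 and 176 CPM with shSIRT3-2. The groups did not overlap, and the log2 difference was 1.32 (SE 0.18, limma adjusted p = 0.00843). OAS1, of the same family, measured 53.8, 52.6 and 61.1 CPM with shSIRT3-1 and 85.8, 95.6 and 93.8 CPM with shSIRT3-2, a difference of 0.72 (limma adjusted p = 0.00669). TRIM22, an antiviral ubiquitin ligase, measured 93, 99.5 and 83.8 CPM with shSIRT3-1 and 158, 177 and 160 CPM with shSIRT3-2, a difference of 0.84 (limma adjusted p = 0.00528). These 3 genes were called in all 6 fits without 1 library.

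The feedback protease USP18 rose by 1.42 (limma adjusted p = 0.0156), HERC6 by 1.28, IFI6 by 1.08 and IFIT2 by 1.06. The other called members were XAF1, IFIT1, IFI35, OAS2, SAMD9L and CMPK2, at 0.63 to 0.93. LGALS9, a galectin, was the member that fell, by 1.38, from 123, 135 and 295 reads to 72, 55 and 76. It passed the filter through the shSIRT3-1 libraries alone. IRF7, a transcription factor of this programme, had a difference of 0.32 (limma adjusted p = 0.0501). The number of members called higher was 3, 6 and 15 without shSIRT3-1 replicate 1, 2 or 3 and 14, 6 and 8 without shSIRT3-2 replicate 1, 2 or 3. It was 19 without replicate 3 of both hairpins and 7 after quantile normalization, after median-ratio scaling and with edgeR.

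The control libraries varied widely for these genes. The summed level of the 42 genes was 3771, 1599 and 1143 CPM with shCtr, 2581, 2530 and 3173 CPM with shSIRT3-1 and 3526, 3935 and 4409 CPM with shSIRT3-2. Every shSIRT3-2 library was above every shSIRT3-1 library, and shCtr replicate 1 was as high as shSIRT3-2 while the other shCtr libraries were below all hairpin libraries.

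Interferon-stimulated response elements carry GAAA, any 2 bases and GAAA again. These letters were found on either strand in 22 of the 31 members that had a promoter, in 3 of the 9 called members that had one, and in 3.57% of all promoters. One match is shown for each of the 3 called members, in the direction of the gene on GRCh38.p14 and with the letters in capitals. They lie at chr1:27672329-27672358 for IFI6 (minus strand), chr10:89392497-89392526 for IFIT1 (plus strand) and chr12:112938452-112938481 for OAS3 (plus strand). In IFIT1 the capitals are the reverse complement of the letters searched. A smaller share of the called members (3 of 9) than of all members (22 of 31) held the letters. The windows are shown as examples of the element and do not set the called members apart.
IFI6: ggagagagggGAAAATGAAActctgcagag
IFIT1: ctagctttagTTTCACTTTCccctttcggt
OAS3: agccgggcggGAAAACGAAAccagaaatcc

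Lysosome and autophagy genes rose in part. Of 39 genes, 36 were tested, 7 were called higher and none lower, with a median of 0.26. Of all genes tested, 6.62% were called higher. CTSD (chr11:1773982-1785803), a lysosomal aspartic protease, measured 18.5, 19.6 and 14.4 CPM with shSIRT3-1 and 36.4, 34.1 and 47.7 CPM with shSIRT3-2, a difference of 1.16 (SE 0.16, limma adjusted p = 0.00919). LAMP1, a protein of the lysosomal membrane, measured 62.3, 59.8 and 68.3 CPM against 113, 107 and 161 CPM and rose by 0.98 (limma adjusted p = 0.0108). In both, all shSIRT3-2 libraries were above the shSIRT3-1 libraries. CTSB, a cysteine protease, rose by 0.98, and the sialidase gene NEU1 by 0.80.

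Among the autophagy members, ULK1, the kinase that starts the process, measured 3.71, 4.45 and 4.01 CPM with shSIRT3-1 and 8.26, 7.4 and 12.6 CPM with shSIRT3-2. It rose by 1.16 (limma adjusted p = 0.0133), and the shCtr libraries, at 9.87, 12.9 and 12 CPM, lay with shSIRT3-2. MAP1LC3A and GABARAP, proteins of the autophagosome membrane, rose by 1.48 (limma adjusted p = 0.0255) and 0.72 (limma adjusted p = 0.014). Without shSIRT3-1 replicate 1 only CTSD was called, and the other 5 fits without 1 library called 6 or 7 members.

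**Figure D3:**
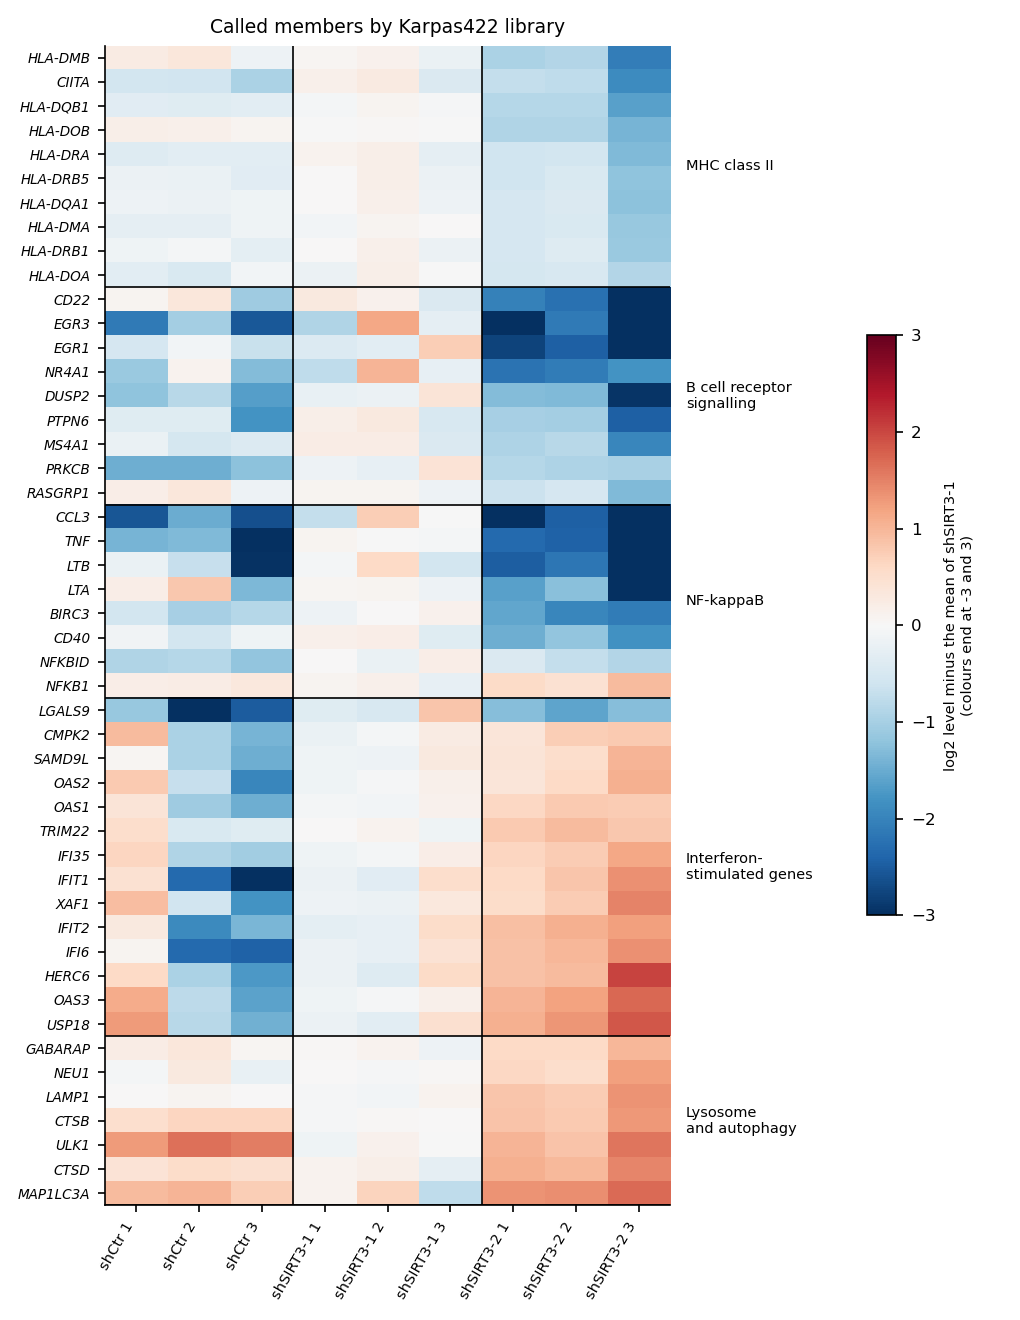
Rows are the called members of the MHC class II, B cell receptor, NF-kappaB, interferon-stimulated and lysosome lists, columns are the 9 Karpas422 libraries, and colour gives the log2 level minus the mean of the 3 shSIRT3-1 libraries, from blue (lower) to red (higher) and capped at -3 and 3. The shSIRT3-2 columns are blue for all 10 class II members and red for 13 of the 14 interferon-stimulated members, and shCtr columns of both colours occur.

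Of 32 targets of ATF4, the transcription factor of the amino acid response, 25 were tested, and 3 were called higher and 3 lower with shSIRT3-2 (6.62% and 4.1% of all genes tested). The median was -0.34, 18 of the 25 differences were negative, and without replicate 3 of both hairpins 2 were called higher and 9 lower. SLC7A11, the cystine importer, measured 10.3, 10.8 and 9.48 CPM with shSIRT3-1 and 21.3, 26.3 and 48.1 CPM with shSIRT3-2, a difference of 1.55 (SE 0.27, limma adjusted p = 0.0135). VLDLR, a lipoprotein receptor, measured 12.3, 10.9 and 7.45 CPM against 32, 24 and 22.7 CPM and rose by 1.37 (limma adjusted p = 0.0101). The leucine transporter gene SLC7A5 rose by 0.83 (limma adjusted p = 0.0281, and 0.0846 without shSIRT3-1 replicate 1). In SLC7A11, VLDLR and SLC7A5, the shSIRT3-1 libraries were the lowest of the 9, and the differences from shCtr were -2.12, -1.53 and -1.49 with shSIRT3-1 and -0.57, -0.17 and -0.66 with shSIRT3-2.

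Other members went the opposite way. DDIT3, the stress factor CHOP, measured 27.3, 22.9 and 36.3 CPM with shSIRT3-1 and 12.8, 11.9 and 13.5 CPM with shSIRT3-2, a difference of -1.15 (SE 0.16, limma adjusted p = 0.00951). SLC6A9, a glycine transporter, fell by 1.47 (limma adjusted p = 0.0186), and INHBE, a subunit of activin E, by 2.06 (limma adjusted p = 0.0328). For DDIT3, SLC6A9 and INHBE the differences from shCtr were -1.45, -3.21 and -3.57 with shSIRT3-1 and -2.60, -4.69 and -5.63 with shSIRT3-2. DDIT3 and VLDLR were called in all 6 fits without 1 library.

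ATF4 itself measured 185, 165 and 134 CPM with shSIRT3-1 and 122, 120 and 104 CPM with shSIRT3-2. The difference of -0.47 had a limma adjusted p of 0.0426 but was under the fold threshold, and shCtr was above both at 329, 372 and 278 CPM. PSAT1, an enzyme of serine synthesis, measured 48.6, 45 and 22.4 CPM with shSIRT3-1 and 22.1, 25.8 and 16.9 CPM with shSIRT3-2, a difference of -0.78 (limma adjusted p = 0.104, and 0.0105 with the replicate number as a block). ASNS, which makes asparagine, had a difference of -1.19 (limma adjusted p = 0.0881, and 0.0075 with the block). With the block 7 members were called lower in place of 3, and without shSIRT3-1 replicate 3 the number was also 7. In PSAT1 and ASNS, replicate 3 of shSIRT3-1 was about as low as the shSIRT3-2 libraries.

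Of 20 cytosolic aminoacyl-tRNA synthetases, all tested, 18 had negative differences, the median was -0.26 and WARS was called lower. Of all genes tested, 4.1% were called lower. WARS, which charges the tryptophan tRNA, measured 106, 104 and 67.5 CPM with shSIRT3-1 and 53.1, 52.3 and 46 CPM with shSIRT3-2, a difference of -0.85 (limma adjusted p = 0.0201). WARS was not called without shSIRT3-1 replicate 1 or 2, at a limma adjusted p of 0.0814 and 0.0597. Of 23 genes of the endoplasmic reticulum stress response, 1 was called, SYVN1, a ubiquitin ligase that degrades misfolded proteins, with a difference of -0.68 (limma adjusted p = 0.00951), and the median was -0.06. Of 78 cytosolic ribosomal proteins, 76 were tested and 73 had negative differences, with a median of -0.34. RPL12, RPL29 and RPL36 were called lower, at -0.69, -0.65 and -0.61. For 40 of the 76, every shSIRT3-1 library was above every shSIRT3-2 library, against 16.5% of all genes tested. The median was -0.19 without shSIRT3-2 replicate 3.

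Few genes of the mitochondrial pathways in which SIRT3 acts were called between hairpins, where 10.7% of all genes tested were called. All 55 subunits of the respiratory chain and ATP synthase were tested and none was called, with a median of 0.00 and with 27 negative and 28 positive differences. None of the 26 tested genes of the citric acid cycle and glutamine entry was called, with a median of 0.01. With the replicate block GLS2, a glutaminase, was called lower, at -0.64 (limma adjusted p = 0.0721 without the block and 0.0411 with it). GLUD1, the glutamate dehydrogenase that feeds glutamine carbon into the cycle, measured 26.3, 29.5 and 24.1 CPM with shSIRT3-1 and 29.7, 32.5 and 26.4 CPM with shSIRT3-2. Its groups overlapped, and the difference was 0.15 (limma adjusted p = 0.364). IDH2, a known SIRT3 substrate, had a difference of 0.53 (limma adjusted p = 0.149, and under the fold threshold). Of 20 mitochondrial chaperones and antioxidants, HTRA2, a protease released in apoptosis, was called lower at -0.69 (limma adjusted p = 0.0192).

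In glycolysis, 26 of 32 genes were tested, 2 were called higher and 1 lower (6.62% and 4.1% of all genes tested). PFKP, a phosphofructokinase, measured 46, 44.7 and 37.2 CPM with shSIRT3-1 and 99.8, 68.1 and 76.5 CPM with shSIRT3-2, and rose by 0.92 (limma adjusted p = 0.0118, and 0.0507 without shSIRT3-1 replicate 1). ENO2, an enolase, rose by 0.77 (limma adjusted p = 0.042) and GAPDH fell by 0.71 (limma adjusted p = 0.0447), and neither call held in any fit without 1 library. In sterol and fatty acid synthesis 31 of 33 genes were tested and IDI1, an isomerase of the mevalonate pathway, was called lower at -0.80 (limma adjusted p = 0.0316). Among NRF2 targets and glutathione genes, SLC7A11 and GSTP1 were called higher and TXNRD1 lower of 20 tested (6.62% and 4.1% of all genes tested). GSTP1, a glutathione transferase, rose by 0.62 (limma adjusted p = 0.00675) and was called in all 6 fits without 1 library, but fell short of the fold threshold after quantile normalization (0.57), with median-ratio scaling (0.54) and with edgeR (0.54). TXNRD1, thioredoxin reductase, measured 110, 106 and 114 CPM with shSIRT3-1 and 67.6, 71.1 and 54.9 CPM with shSIRT3-2, a difference of -0.78 (limma adjusted p = 0.00915).

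Among the remaining lists, all 40 genes of DNA replication and mitosis were tested and TYMS, AURKB and RRM2 were called higher. The median of the 40 was 0.19, with 33 positive differences. Over all genes tested, 6.62% were called higher and 4.1% lower. AURKB, a mitotic kinase, measured 22.2, 23.8 and 20.1 CPM with shSIRT3-1 and 34, 35.3 and 36.4 CPM with shSIRT3-2, a difference of 0.68 (SE 0.09, limma adjusted p = 0.00777) that was called in all 6 fits without 1 library. Of 21 tested p53 targets GADD45B was called lower, at -1.01 (limma adjusted p = 0.0244). Of 17 tested heat shock genes HSP90AA1 and BAG3 were called higher, at 0.61 and 0.77. No member was called among 12 tested genes of the BCL2 family or 15 of the MYC network, in which MYC had a difference of -0.77 (limma adjusted p = 0.0545, and 0.0134 with the replicate block). Of 55 replication-dependent histones 4 passed the filter, and HIST1H1C and HIST1H2BJ were called lower at -1.22 and -1.09. A called member of the histones passed the filter through the shSIRT3-1 libraries alone. Without shSIRT3-1 replicate 1, 2 or 3, only 3 histones were tested, and 0, 1 and 1 were called lower.

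**Figure D4:**
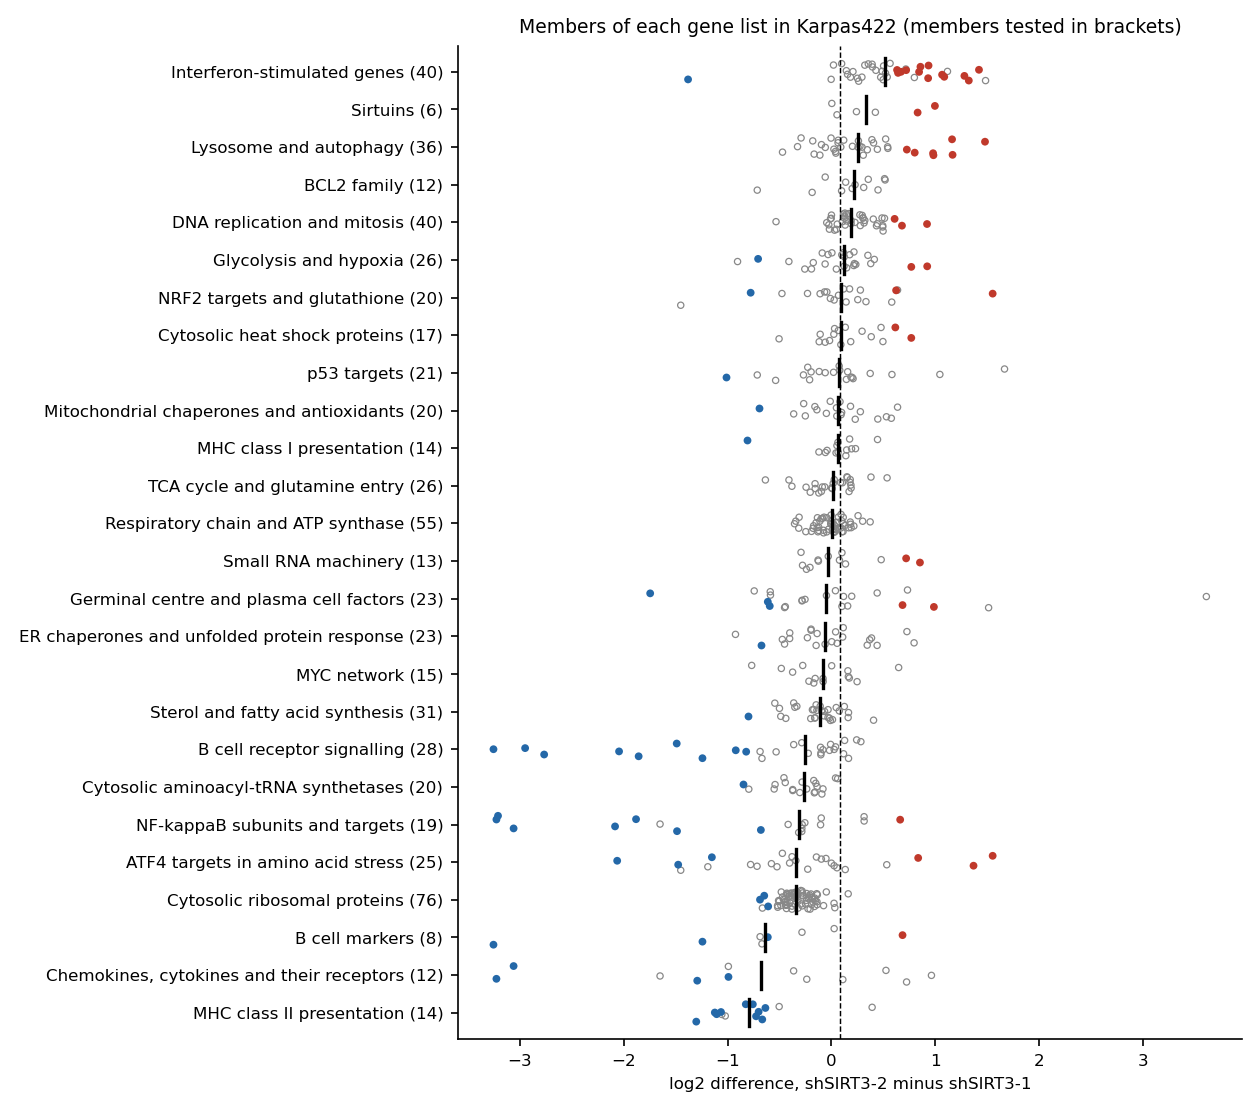
Each row is a gene list with the number of members tested in brackets, each circle is 1 member at its log2 difference of shSIRT3-2 minus shSIRT3-1, filled red where called higher and blue where called lower, bars are the list medians and the dashed line is the median of all genes, 0.08. MHC class II presentation has a median of -0.79, interferon-stimulated genes one of 0.51, and the respiratory chain stands at 0.00 with no filled circle.

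The same pair of hairpins was compared in the other lines to see which differences were shared. shSIRT3-2 and shSIRT3-1 differed for 653 genes in OCI-Ly1 (5.92% of those tested, with 2.68% higher and 3.24% lower). In HBL1 they differed for 2599 genes (22.6%, with 12.1% higher and 10.5% lower). Of the 650 genes called higher in Karpas422 and tested in OCI-Ly1, 117 were called higher there, which is 18% of the former list and 48.1% of the OCI-Ly1 list, where 2.39% of the genes tested in both were called higher. Of the 324 called lower and tested in OCI-Ly1, 94 were called lower there, 29% of the former and 31.4% of the latter list, where 2.95% of genes were. In HBL1, 299 of 647 were called higher alike (46.2% and 26.3% of the lists, against 11.1% of genes) and 124 of 346 lower alike (35.8% and 12.4%, against 9.82%). Opposite calls were made for 11 of the higher and 6 of the lower genes by OCI-Ly1, and for 13 and 22 by HBL1. Over the 9789 genes tested in all 3 lines, 89 were called higher and 45 lower in each.

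Among the genes called alike in all lines, those with the largest values of the smallest of their 3 differences were RAP2B, MAP2K4, XKR8, LIMS1 and TMEM64 on the higher side and RNF7, RRAGC, CAMP, HLA-DMB and CMTM6 on the lower side. RNF7 (chr3:141457091-141466402), a RING subunit of ubiquitin ligases, measured 28.9, 30.4 and 29.5 CPM with shSIRT3-1 and 9.81, 9.65 and 8.86 CPM with shSIRT3-2 in Karpas422. Its difference was -1.64 (SE 0.08, limma adjusted p = 0.00118), where OCI-Ly1 had -2.02 and HBL1 had -2.17. The shCtr libraries, at 24.3, 22.3 and 22.8 CPM, lay near shSIRT3-1. RRAGC, a GTPase that signals amino acids to mTORC1, measured 44.9, 37.2 and 45.7 CPM against 15.4, 14.9 and 11 CPM and had differences of -1.63, -1.39 and -1.81 in Karpas422, OCI-Ly1 and HBL1. CMTM6, a membrane protein that stabilises PD-L1, had differences of -1.24, -1.22 and -1.28. LIMS1, an adaptor of integrin signalling, rose by 1.67, 1.29 and 2.23. MAP2K4 rose by 1.41, 1.35 and 1.56.

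The difference between hairpins was then compared between lines by a limma contrast of the 2 differences. It called 305 genes (2.39%) between Karpas422 and OCI-Ly1 and 2445 genes (19.2%) between Karpas422 and HBL1. No MHC class II member was called by either contrast. In HBL1, 10 of 13 tested class II genes were called lower with shSIRT3-2, where 10.5% of all genes were. In OCI-Ly1, 2 of the 6 that passed the filter were called lower, where 3.24% of all genes were.

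Interferon-stimulated genes separated Karpas422 from OCI-Ly1. In OCI-Ly1, 16 of 33 tested members were called lower with shSIRT3-2 and none higher, where 3.24% of all genes were called lower. In HBL1, 24 of 39 were called higher and none lower, where 12.1% of all genes were called higher. The contrast with OCI-Ly1 called 12 of 40 members, all with a more positive difference in Karpas422, where 1.4% of all genes were called in that direction. The contrast with HBL1 called 9 of 40, all with a smaller difference in Karpas422, where 8.33% of all genes were called in that direction. For OAS3 the difference of 1.32 in Karpas422 stood between those of OCI-Ly1 (-1.14) and HBL1 (2.40).

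NF-kappaB genes separated Karpas422 from HBL1. In HBL1, 6 of 19 tested members were called higher and 1 lower, where 12.1% and 10.5% of all genes were. The contrast with HBL1 called 10 of 19, all with a more negative difference in Karpas422. Of all genes, 8.33% were called in that direction. TNF had a difference of -3.21 in Karpas422 and 1.53 in HBL1, where it measured 14.2, 10.9 and 16.7 CPM with shSIRT3-1 and 44.6, 34.4 and 41.2 CPM with shSIRT3-2. CCL3 had a difference of -3.22 in Karpas422 and 4.07 in HBL1, at 2.18, 1.38 and 2.36 CPM with shSIRT3-1 and 33.5, 19.8 and 58.2 CPM with shSIRT3-2. For each of TNF and CCL3 the order of the hairpins was reversed between these lines, without overlap of the groups in either. For ATF4 targets, the contrast with HBL1 called 10 of 25 members, all more negative in Karpas422, against 8.33% of all genes.

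**Figure D5:**
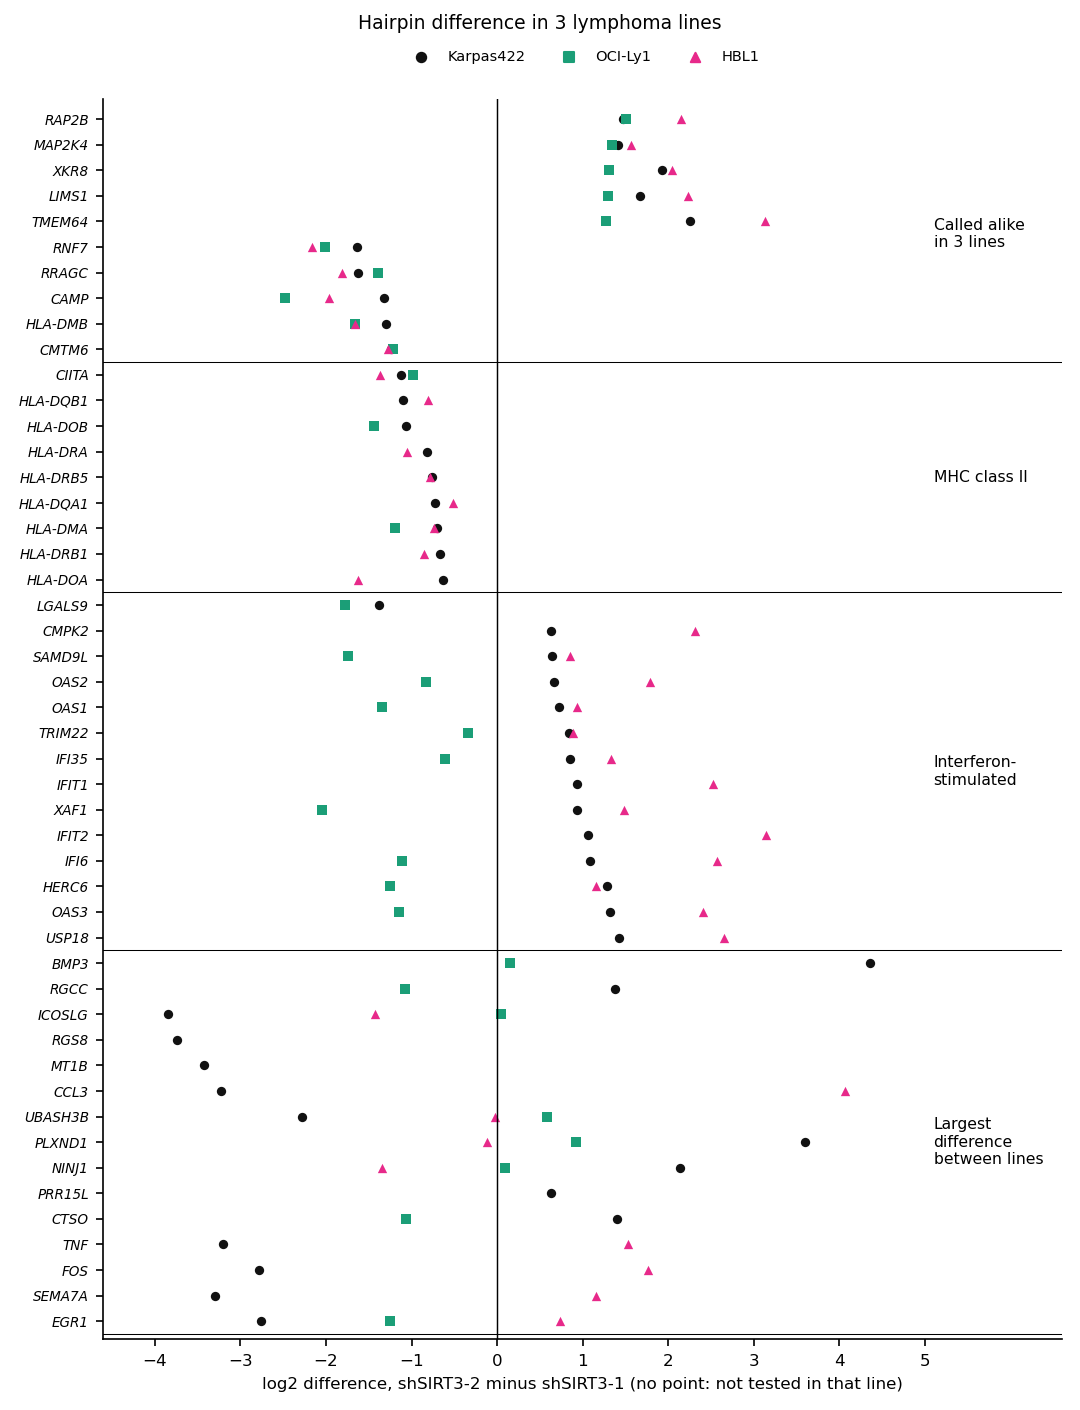
Each row is a gene and each point its log2 difference of shSIRT3-2 minus shSIRT3-1 in Karpas422 (circle), OCI-Ly1 (square) or HBL1 (triangle), with no point where the gene was not tested. The upper blocks (genes called alike and MHC class II) have all points on the same side of 0, the interferon-stimulated block has the OCI-Ly1 points below 0 and the HBL1 points above it, and TNF, CCL3, SEMA7A and EGR1 lie below 0 in Karpas422 and above 0 in HBL1.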

How the data were processed

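RNA-seq values of 27 libraries were used, 6 of them in the comparison of hairpins. Per the labels and the study's methods, the authors made random-primed libraries from total RNA, sequenced paired ends, aligned reads to hg19 with STAR and assigned them to RefSeq genes with Rsubread. The deposited values are described as FPKM, but within a library each value was a whole number of reads times 1 constant, whatever the gene's length (100% within a tolerance of 0.01 read), so they were treated as CPM that the authors had normalized. Division by that constant gave back the reads. In the 6 libraries, reads on genes were 43.2% to 45.6% of the authors' scaling total, and 3 reads were worth 0.0254 to 0.0321 CPM.

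limma 3.58.1 (R 4.3.3) was fitted to log2(CPM + 0.1) with a variance trend and without a replicate block, and the scripts were tested on simulated data. A fit was made for the 6 libraries, for the 9 libraries of Karpas422 against shCtr, and for the 18 hairpin libraries for contrasts between lines. Replicate numbers come from the labels, which do not say what they stand for. Deviations of the same number correlated between hairpins (r = 0.51, 0.46 and 0.53), and those of different numbers at 0.28 or below. Alternatives were pseudocounts of 1 and 0.01, no filter or a minimum of 5, quantile and median-ratio scaling, the replicate block, no variance trend, 9 libraries, edgeR 4.0.16 on the recovered reads, leaving out each library, leaving out replicate 3 of both hairpins and removing a trend in GC content and length (also with the block), the last of these and the fit without replicate 3 being added after the data were seen. The methods name edgeR for the study's own tests.

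Members and the 33 gene lists were chosen with earlier results of these data known. Genes were named by a rule: SIRT3, ATF4 and PSAT1, the 10 largest rises and falls among called genes whose groups did not overlap and whose higher group had a mean of at least 5 CPM, the 5 largest for each placement against shCtr, up to 6 called members per list and the 3 with the highest level, the 5 largest called alike in 3 lines in each direction and the 5 with the largest difference between lines. Other called list members, PRDM1, HLA-DPB1, CTSS, CD79A, IRF7, ASNS, CXCR4, GLUD1, GLS2, IDH2, CD38, PFKFB3, PFKFB4, VEGFA and KDM3A were named after their values were seen. Gene positions are those of GENCODE on GRCh37, and promoters are those of RefSeq on GRCh38.p14.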

Additional observations from a re-analysis of the deposited data

Results flagged for a closer look

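The difference between shSIRT3-2 and shSIRT3-1 itself differed between cell lines, by a limma contrast over the 18 hairpin libraries, for 305 genes between Karpas422 and OCI-Ly1 and for 2445 genes between Karpas422 and HBL1. No test for outlying samples was run on groups of 3 libraries.

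Against OCI-Ly1, the difference was larger in Karpas422 by 4.21 (log2) for BMP3, 2.98 for XAF1, 2.53 for HERC6, 2.46 for OAS3 and 2.45 for RGCC. It was smaller, at -3.90 for ICOSLG, -3.53 for RGS8, -3.43 for MT1B, -3.20 for CCL3 and -2.86 for UBASH3B. BMP3 measured 33.7 to 61.9 CPM in the OCI-Ly1 libraries and ICOSLG 35.6 to 57.7 CPM, with a hairpin difference there of 0.15 and 0.05. RGS8 and MT1B were at most 0.0191 CPM in OCI-Ly1 and CCL3 at most 0.0514 CPM, so for these the contrast is set by Karpas422.

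Against HBL1, the difference was larger in Karpas422 by 4.32 for BMP3, 3.72 for PLXND1, 3.48 for NINJ1, 2.60 for PRR15L and 2.50 for CTSO. It was smaller, at -7.29 for CCL3, -4.74 for TNF, -4.55 for FOS, -4.45 for SEMA7A and -3.50 for EGR1. BMP3 was at most 0.00939 CPM in HBL1. PRR15L and CTSO did not pass the filter in HBL1. PRR15L measured 0.438, 1.04 and 0.396 CPM with shSIRT3-1 and 0.0781, 0.0831 and 0.0563 CPM with shSIRT3-2 there. The difference of PRR15L in Karpas422 was 0.63. CTSO measured 0.681, 0.688 and 3.6 CPM with shSIRT3-1 and 0.508, 0.416 and 0.648 CPM with shSIRT3-2 in HBL1. SEMA7A, whose product signals through plexins and integrins, measured 39, 35.2 and 20.1 CPM with shSIRT3-1 and 70.9, 62.7 and 68.8 CPM with shSIRT3-2 in HBL1, the reverse of its order in Karpas422. NINJ1 also reversed, at 9.52, 9.5 and 13.9 CPM against 5.17, 4.29 and 3.28 CPM in HBL1.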

How the results depend on the processing

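The count of genes called between hairpins in Karpas422 (1179) was 975 and 1193 with pseudocounts of 1 and 0.01, 1333 without a filter, 855 with a minimum of 5, 1263 with 9 libraries, and 1076 both after quantile normalization and with edgeR. After removal of the trend in GC content and length it was 1105 over the 10327 genes with both values, and all 1098 called genes among them kept their sign. It ranged from 196 (without shSIRT3-1 replicate 1) to 992 when 1 library was left out, where an adjusted p is computed from 5 libraries, and at an unadjusted p under 0.05 the same fits gave 2983 to 4093 genes, against 4141 with all 6. The SIRT3 difference ranged from 0.88 to 1.12 when 1 library was left out and was called in all of these fits but that without shSIRT3-1 replicate 1 (0.95, limma adjusted p = 0.0543). With the replicate number as a block, 1503 genes were called and all 1179 were among them, and with the block and the GC trend removed 1378. The block also moved counts in short lists by more than 1.5 times, for example the genes called lower from 3 to 7 for ATF4 targets and from 3 to 6 for germinal centre and plasma cell factors. No called gene that is named changed sign under the alternatives run. Of the genes not called that are named in this text, 6 did, and the cause was not tested. CD79B was at -0.053 with median-ratio scaling and -0.053 with edgeR, and VEGFA at 0.28 with edgeR and 0.11 without replicate 3 of either hairpin. When 1 library was left out, the difference ranged from -0.0098 to 0.054 for CD79B, -0.49 to 0.25 for DCN, -0.18 to 0.52 for KDM3A, -0.77 to 1.00 for PFKFB3, -0.60 to 1.13 for PFKFB4 and -1.27 to 0.98 for VEGFA. At this depth, a gene under 0.0321 CPM rests on at most 3 reads in the shallowest library, and TNFRSF21 and BMP3 had shSIRT3-1 libraries with 5 and with 2 reads.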

Other observations

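PFKFB3, PFKFB4, VEGFA and KDM3A, which are known to respond to hypoxia, were chosen after their values were seen. PFKFB3, which makes the activator of glycolysis fructose bisphosphate, measured 43.8, 12 and 9.41 CPM with shCtr, 28.6, 12.3 and 9.38 CPM with shSIRT3-1, and 94.9, 8.1 and 9.39 CPM with shSIRT3-2. PFKFB4, of the same family, measured 22.1, 4.52 and 4.58 CPM with shCtr, 16.3, 7.34 and 3.32 CPM with shSIRT3-1, and 40.2, 6.51 and 3.59 CPM with shSIRT3-2. In both genes replicate 1 was the highest of each group, and neither PFKFB3 nor PFKFB4 was called between hairpins (limma adjusted p = 0.788 and 0.765).

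VEGFA, an angiogenic factor, measured 74.5, 67.6 and 48.8 CPM with shCtr, 19.8, 21.2 and 3.27 CPM with shSIRT3-1, and 43.7, 11.1 and 1.85 CPM with shSIRT3-2. Replicate 3 was the lowest library of each group. KDM3A, a histone demethylase, measured 173 CPM in shSIRT3-2 replicate 1 and 65.1 to 105 CPM in the other 5 hairpin libraries.

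CD38, a surface enzyme of both germinal centre B cells and plasma cells, measured 1.26, 1.19 and 1.49 CPM with shSIRT3-1. With shSIRT3-2 it measured 1.73, 1.67 and 19.9 CPM, so that its high level was that of replicate 3, the library with the highest PRDM1 level.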
